A study of Oryza sativa with 7 samples.

Results

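DNA methylation of Pokkali seedlings under salinity was compared with that of Pokkali seedlings under control conditions, at single base resolution, by whole genome bisulphite sequencing. The comparison used 2 of the 7 libraries of the series, chosen by their cultivar and condition labels. The other 5 libraries came from the rice cultivars IR64 and Nagina 22 (N22) and entered as background values. They were IR64 under control conditions, desiccation and salinity (200 mM salt), and N22 under control conditions and desiccation. Pokkali is a cultivar of rice (Oryza sativa) known for its tolerance to salinity. The salinity group was Pokkali seedlings given a 200 mM salt solution, and the control group was Pokkali seedlings given RO water. Both were raised in a culture room, both libraries were made from whole seedlings, and the sources used here did not give the duration of the salt treatment. The DNA of the control library was a pool of 3 biological replicates, and for the salinity library pooling was not stated. There was 1 library in each group and therefore no error between replicates, so every value below states how the reads of 2 libraries compared.

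Plant DNA carries methylated cytosines in CG, CHG and CHH sequences, H being any base but G. CG methylation is copied at each DNA replication by the methyltransferase MET1. CHG methylation is kept by CMT3 in a loop with histone H3 lysine 9 methylation. CHH methylation is asymmetric and has to be set anew, by DRM2 under the guidance of small RNAs (RNA-directed DNA methylation) mainly at short transposable elements and the edges of longer ones, and by CMT2 in heterochromatin. Pericentromeric regions of plant chromosomes are rich in transposable elements and the arms are rich in genes.

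The deposited tables held the cytosines called methylated (mCs) by the authors, each covered by at least 5 reads. The mean depth was 16.15 reads per listed mC under salinity and 19.1 reads in the control. On the 12 chromosomes, 6358757 CG, 3598967 CHG and 2201484 CHH mCs were listed in both libraries, and all comparisons below rest on these shared mCs. They were 72.34% of the CG mCs listed in either library, 66.22% of the CHG mCs and 42.91% of the CHH mCs. For CHH, the shared mCs were 67.24% of those listed under salinity and 54.25% of those listed in the control. A further 1072344 CHH mCs were listed under salinity alone, at a level of 25.18% and a mean depth of 14 reads, and 1856188 in the control alone, at a level of 24.93% and a mean depth of 17.7 reads. The tables did not show the level of such a cytosine in the other library.

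CHH methylation was higher under salinity and the pooled CG level was slightly lower. The methylation level, the percent of methylated reads among all reads at the shared mCs, was 37.76% under salinity (95% Wilson interval 37.741% to 37.773%) and 34.95% in the control (34.937% to 34.964%) in CHH, a difference of 2.81 percentage points. In CG the level was 82.53% under salinity (82.522% to 82.536%) and 82.88% in the control (82.877% to 82.89%), a difference of -0.354 points. In CHG it was 64.26% under salinity and 63.71% in the control, a difference of 0.553 points. One read covers several cytosines, so the counts are not independent molecules and the intervals and p-values given here cover counting error only.

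The CHH difference was seen in many single cytosines and on both strands. Of the shared CHH mCs, 60.3% had a higher level under salinity and 35.7% a lower one, whereas in CG 39.9% were higher and 40.5% were lower. The median CHH mC had a level of 46.15% under salinity and 40% in the control. The lower quartile was 32.0% under salinity and 26.32% in the control, and the upper quartile was 66.67% under salinity and 61.54% in the control. The share of CHH mCs with a level above 10% and up to 20% was 7.488% under salinity and 13.42% in the control. The share above 70% and up to 80% was 8.982% under salinity and 6.905% in the control. The difference of the CHH level was 2.89 points on the plus strand and 2.73 points on the minus strand. In CG, mCs above 90% made up 56.22% of the shared mCs under salinity and 58.83% in the control, and those above 80% and up to 90% made up 20.74% under salinity and 19.79% in the control.

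Both pooled levels moved with read depth, and the CHH difference moved more than the CG difference. The ratio of salinity reads to control reads at the shared mCs was 0.826 in CG, 0.864 in CHG and 0.756 in CHH. A library with fewer reads at a cytosine needs a larger share of methylated reads to have it listed. When the reads of each shared mC were thinned to the same number in both libraries and the mCs were called again, the CHH level was 41.18% under salinity and 39.07% in the control, a difference of 2.10 points over 1713383 mCs. The CG level after thinning was 83.83% under salinity and 84.19% in the control, a difference of -0.366 points, and the CHG difference was 0.24 points. At the 122060 CHH mCs that had equal depth in both libraries without thinning, the level was 48.68% under salinity and 46.47% in the control. This difference of 2.21 points was present in each class of depth, at 1.97 points for 5 to 9 reads, 3.14 points for 10 to 14 reads, 2.36 points for 15 to 19 reads, 1.72 points for 20 to 29 reads and 0.707 points for 30 reads and above. At CG mCs of equal depth the difference was -0.431 points, and it lay between -0.527 and -0.323 points in the 5 depth classes.

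A small number of mCs with very high depth carried much of the weight. The mCs above the 99th percentile of depth in either library, 74 reads under salinity or 79 reads in the control, were 1.66% of the shared CHH mCs and held 23.1% of the CHH reads under salinity and 20.4% in the control. Their CHH level was 8.816% under salinity and 8.918% in the control. Without them, the CHH level was 46.43% under salinity and 41.62% in the control, a difference of 4.82 points. In CG, 1.02% of the shared mCs were this deep and held 16.5% of the reads under salinity and 13.8% in the control. The deep CG mCs had a level of 68.74% under salinity and 68.1% in the control, a difference of 0.634 points. Without them, the CG level was 85.25% in both libraries, and the difference changed sign to 0.00776 points. By pooled reads, neither part was lower under salinity by itself, and deep mCs held a larger share of the CG reads under salinity. With every shared CG mC counted once, the difference of the mean level was -0.231 points. The median CG bin differed by -0.247 points, deep mCs included. The part of the deep mCs in the pooled CG difference of -0.354 points was not tested. With thinning and without the deep mCs together, CHH was 50.11% under salinity and 47.51% in the control, a difference of 2.59 points, and CG was 85.97% under salinity and 86.36% in the control, a difference of -0.394 points. The positive CHH difference was present in each of these settings, and the negative CG difference was lost in the setting that removed the deep mCs without thinning.

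Differential methylation was then examined in bins of 100 bp with at least 3 shared mCs of a context. For each bin, the reads with and without methylation at its shared mCs were added up, and the libraries were compared by Fisher's exact test (two-sided, Benjamini-Hochberg adjustment within the context). A bin was called a differentially methylated region (DMR) at an adjusted p of at most 0.01 and a difference of at least 20 points. In CHH, 220900 bins were tested and 5110 were called, which is 2.31% of the tested bins. Of these, 4945 were higher under salinity (2.24% of the tested bins) and 165 were lower (0.0747%). The share of higher bins among the CHH DMRs was 96.8% (95% Wilson interval 96.2% to 97.2%). In CG, 852127 bins were tested and 540 were called (0.0634%), of which 194 were higher (0.0228%) and 346 lower (0.0406%), a share of higher bins of 35.9% (32.0% to 40.1%). In CHG, 68 of 523676 bins were called (0.013%), 24 of them higher (0.00458%) and 44 lower (0.0084%).

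The shift in CHH was not restricted to called bins. Over all tested CHH bins the median difference was 4.36 points, the quartiles were -1.41 and 11.1 points, and 69.2% of the bins were higher under salinity. These values used all reads, and the median CHH bin held 76 reads under salinity and 110 in the control. Over all tested CG bins the median was -0.247 points, the quartiles were -3.56 and 2.94 points, 47.0% were higher and 52.0% lower. A difference of at least 20 points, with no condition on p, was found in 15839 CHH bins that were higher and 2131 that were lower, and in 4667 CG bins that were higher and 4998 that were lower. In CHG the median difference was 0.405 points and 52.1% of the bins were higher.

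**Figure D1:**
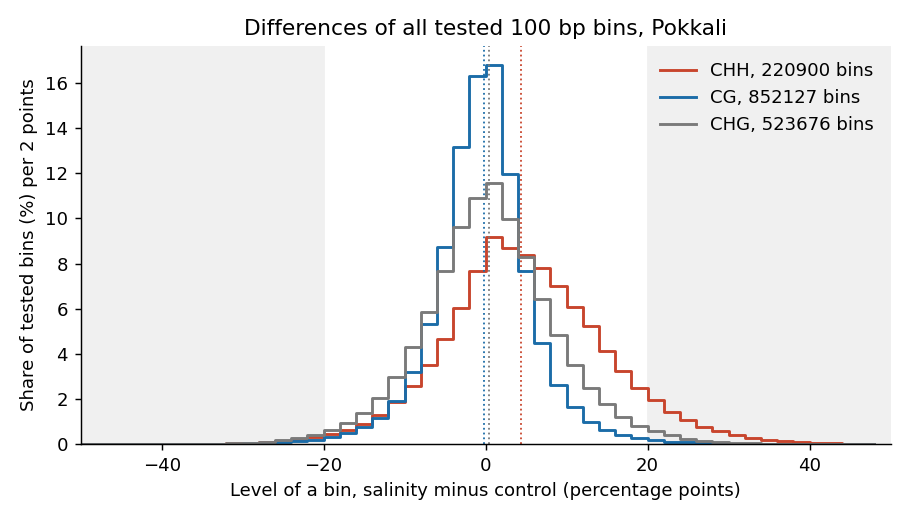
Share of the tested 100 bp bins (%, per class of 2 points, y axis) by the methylation level under salinity minus control (percentage points, x axis) for CHH, CG and CHG bins, with dotted lines at the medians and grey areas beyond 20 points. With all reads, the CHH bins lie to the right, with a median of 4.36 points, while the CG bins centre near 0 with a median of -0.247 points.

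The called CHH bins combined a change in level with a deficit of reads under salinity. In the bins called higher, the median level was 62.5% under salinity and 34.0% in the control, and the median difference was 26.1 points (quartiles 22.8 and 31.4 points). They held a median of 11 shared CHH mCs, against 6 in all tested CHH bins. Their mean depth was 10.4 reads per mC under salinity and 18.4 reads in the control, and their median depth ratio was 0.542, against 0.725 in all tested bins. In the 165 bins called lower, the median level was 44.7% under salinity and 72.0% in the control, with a median depth ratio of 0.897. In CG bins called lower the median level was 49.4% under salinity and 80.2% in the control, with a depth ratio of 0.979. In CG bins called higher it was 77.0% under salinity and 43.7% in the control, with a depth ratio of 0.8, against 0.821 in all tested CG bins.

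The CHH difference declined as the depth ratio rose. In the 40730 CHH bins with a depth ratio under 0.5 the pooled difference was 9.12 points, and it was 5.34 points for ratios of 0.5 to 0.75, 2.46 points for 0.75 to 1, 1.24 points for 1 to 1.5, and -0.695 points in the 5767 bins with a ratio of 1.5 and above. After thinning to equal depth these classes had differences of 3.42, 3.24, 2.33, 1.65 and 1.65 points, all above 0. The median bin difference of the classes was 10.1, 5.72, 2.65, 0.458 and -2.33 points with all reads. Thinned, it was 3.0, 2.83, 2.04, 1.45 and 1.18 points. The DMRs followed the same order, with 2028 bins called higher and 13 called lower at ratios under 0.5, and 16 called higher and 14 called lower at ratios of 1.5 and above. Thinning left 984 CHH DMRs, of which 950 were higher and 34 lower, a share of higher bins of 96.5%. It left 192 CG DMRs, 63 higher and 129 lower, a share of 32.8%. Thinning also lowered the number of reads, to 27222127 CHH reads in each library, and calling again left 172564 CHH bins to test, so the lower number of DMRs cannot be assigned to equal depth alone.

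The number of independent reads in a bin set another limit. When the reads of each bin were divided by its number of mCs, so that a read covering all mCs counted once, no bin was called in any context by Fisher's exact test. The division leaves few reads in a bin, so a bin is hard to call and the absence of called bins decides little. An unadjusted p under 0.05 with at least 20 points was met by small shares of the tested bins. In CHH these were 270 of 220900 bins, 259 of them higher and 11 lower. In CG they were 256 of 852127 bins, 85 higher and 171 lower. In CHG they were 96 of 523676 bins, 48 higher and 48 lower. The direction of each context was therefore read from the distribution over bins, and a single bin was taken as a description of its reads.

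**Figure D2:**
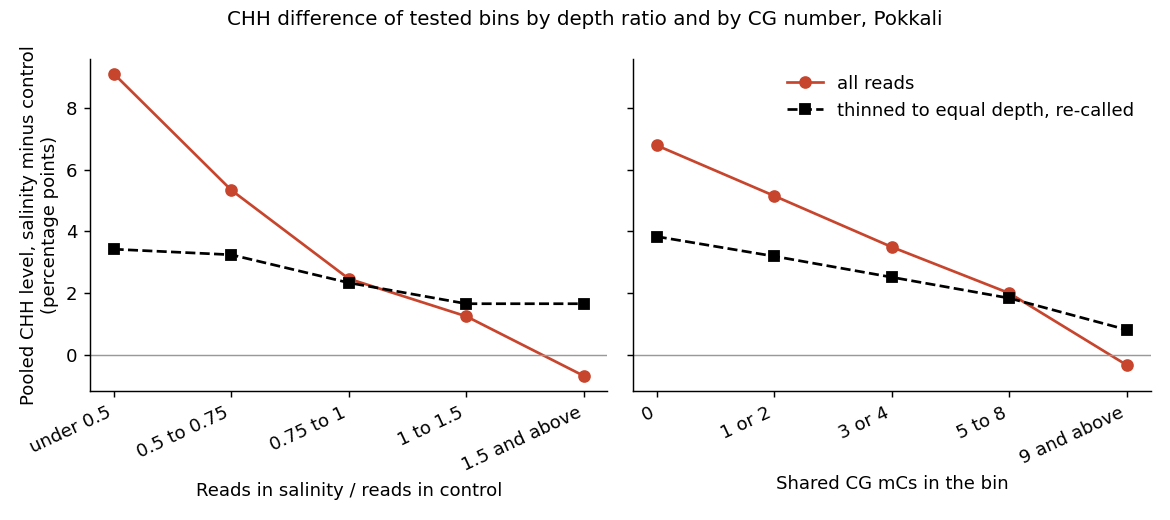
Difference of the pooled CHH level, salinity minus control (percentage points, y axis), in classes of tested CHH bins by the ratio of salinity to control reads (left) and by the number of shared CG mCs in the bin (right), with all reads (circles) and after thinning to equal depth (squares). With all reads the difference declines to -0.695 points at the highest depth ratio, and after thinning it lies between 1.65 and 3.42 points over the depth ratios and between 0.802 and 3.83 points over the CG numbers.

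CHH bins with few CG mCs showed the larger gain. In bins with no shared CG mC the CHH difference was 6.79 points, and it was 5.15 points with 1 or 2 CG mCs, 3.49 points with 3 or 4, 1.99 points with 5 to 8, and -0.346 points with 9 and more. The share of bins called higher ran in the same order, at 3.8%, 2.79%, 1.97%, 1.27% and 0.556%. The depth ratio moved with these classes and was 0.69 in bins without CG mCs and 0.917 in bins with 9 and more. After thinning, the differences were 3.83, 3.19, 2.51, 1.83 and 0.802 points, so the order was kept at equal depth and the sign of the last class turned positive. Bins with 12 and more shared CHH mCs had a difference of 5.23 points and 4.78% of them were called higher. Bins with 3 or 4 had a difference of 1.64 points and 0.376% were called higher. The difference was 1.19 points with 5 to 7 CHH mCs and 2.31 points with 8 to 11. The test adds up the reads of all mCs of a bin, so at the same difference a bin with more mCs is called more easily.

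The gain in CHH and the loss in CG were not paired within bins. In the 119097 bins tested in both contexts, 33.2% were higher in CHH and lower in CG, 32.6% were higher in both, 18.0% were lower in both and 15.1% were lower in CHH and higher in CG. The Pearson correlation of the CHH and CG differences over these bins was 0.0654, given as a description since bins are not replicates and both contexts come from the same reads. Of the 4945 bins called higher in CHH, 1676 (33.9%) were also tested in CG, and 899 of these had a CG difference above 0 and 769 one below 0. Their median CG difference was 0.541 points (0.12 at a minimum depth of 10 and 0 after thinning), their pooled CG difference was -0.0757 points, and 1 of them was called in CG. The same CHH bins were higher in CHG, where 957 were tested with a level of 69.34% under salinity and 62.73% in the control. Their median CHG difference was 6.50 points, and 730 of them were above 0 and 222 below. The bins called higher in CHH had a median CHH depth ratio of 0.542, and their CHG difference was not computed at equal depth. Over all CHH bins also tested in CG, 47.8% were above 0 in CG and 51.3% below. Over all CHH bins also tested in CHG, 54.4% were above 0 in CHG and 45.2% below.

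CG and CHG differences went together at CG DMRs. Of the 346 bins called lower in CG, 102 were tested in CHG, with a CHG level of 34.11% under salinity and 53.2% in the control, and 99 of the 102 were below 0, with a median of -17.4 points. Of the 194 bins called higher in CG, 40 were tested in CHG, with a level of 53.86% under salinity and 36.13% in the control, and 37 were above 0, with a median of 17.8 points. Few CG DMRs could be followed in CHH. Of those called lower, 16 were tested in CHH, 8 above and 8 below 0. Of those called higher, 13 were tested in CHH and 12 were above 0. Over all CG bins also tested in CHH, 66.3% were above 0 in CHH. Over all CG bins also tested in CHG, 51.7% were above 0 in CHG and 47.8% below. CG DMRs were mostly found in bins tested in CG alone, where 148 of 416090 bins were called higher and 236 lower. The share of bins called was 0.0923% there. It was 0.0401% in CG bins with CHG but not CHH tested, 0.026% with CHH but not CHG tested, and 0.023% with both tested. The pooled CG difference of bins tested in CG alone was -1.12 points. In the other classes it was -0.695, -0.368 and -0.722 points, in the order above. These pooled values include the deep mCs, whose part in them was not tested.

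The dependence on the starting level was examined in classes of 20 points. A class set by the same reads that give the difference shifts by counting error alone, so the control reads were split at random, with one part setting the class and the other giving the level. In CHH, the difference was 0.319 points in bins starting below 20%, 5.86 points in those at 20% to 40%, 4.94 points at 40% to 60%, 2.33 points at 60% to 80% and -0.862 points in the 6051 bins at 80% and above. The median bin difference was 2.51, 6.09, 4.68, 2.19 and -0.725 points in these classes, and the share of bins higher under salinity was 68.8%, 73.3%, 66.7%, 57.9% and 46.1%, so single bins below 20% were mostly higher although their pooled difference was small. In CG, most tested bins (694549) started at 80% and above, where the level was 90.88% under salinity and 91.49% in the control, a difference of -0.613 points. CG bins starting at 20% to 40% had a difference of 1.30 points.

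The highest CHH class depended on the library that set the classes. With classes from all Pokkali control reads, its difference was -3.21 points. With classes from the IR64 control library, which shares no reads with the comparison, the differences were 0.349, 4.85, 5.92, 5.04 and 3.45 points from the lowest class to the highest. With these IR64 classes and reads thinned to equal depth, they were 0.522, 2.87, 3.89, 3.63 and 2.32 points. The gain at 20% to 60% and the small pooled difference below 20% were thus present under each of these classings, and a loss at 80% and above appeared where the class was set by Pokkali control reads. In CG, the IR64 classes gave differences of 0.633, -0.531, -0.393, 0.104 and -0.340 points from the lowest class to the highest, and after thinning all 5 were below 0, between -0.598 and -0.161 points.

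**Figure D3:**
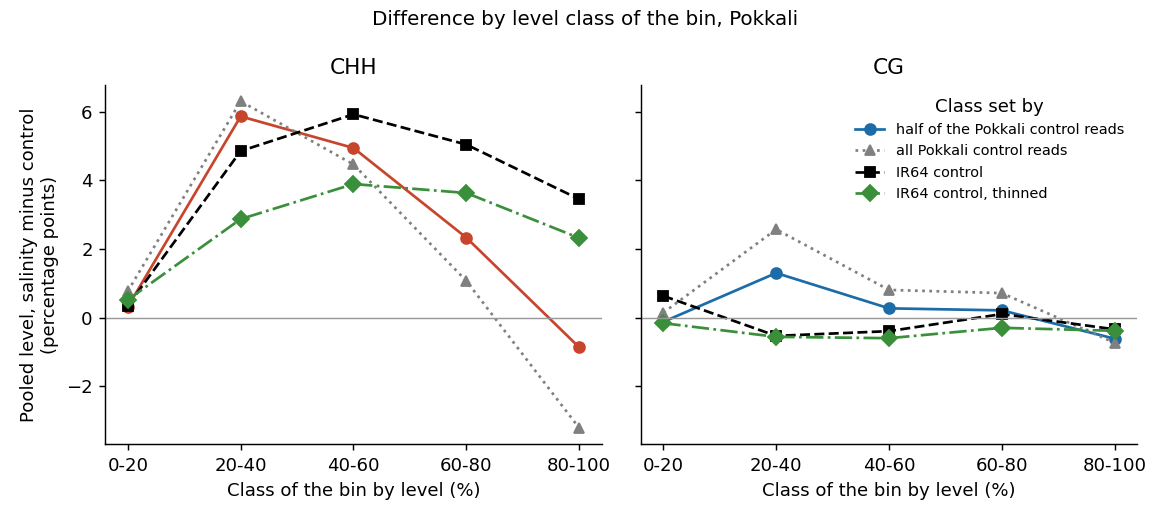
Difference of the pooled level, salinity minus control (percentage points, y axis), of CHH bins (left) and CG bins (right) in classes of methylation level (%, x axis), with the class set by part of the Pokkali control reads, by all of them, or by the IR64 control library before and after thinning. In CHH the classes from 20% to 60% lie between 2.87 and 6.30 points in each line, and the lines part at the highest class, between -3.21 and 3.45 points.

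The CHH gain was larger on the chromosome arms than near the centromeres. Windows of 1 Mb were grouped by their distance from the centromere midpoint of the reference map, and the deep mCs were left out because a few of them decided single windows. Within 2 Mb of the centromere the CHH level was 40.72% under salinity and 37.79% in the control, a difference of 2.92 points. At 2 to 5 Mb it was 42.47% under salinity and 38.48% in the control (3.99 points), at 5 to 10 Mb 45.78% under salinity and 40.74% in the control (5.04 points), and beyond 10 Mb 49.4% under salinity and 43.98% in the control (5.42 points). With the deep mCs included, the differences were 2.06, 0.905, 3.82 and 3.63 points from the centromere outwards. Thinning together with removal of the deep mCs gave 1.40, 1.85, 2.72 and 2.97 points. The median difference of the CHH bins had the same order, at 2.95, 3.59, 4.64 and 4.69 points.

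CHH DMRs were found along the whole chromosomes and more often on the arms. The share of tested bins called higher was 1.32% within 2 Mb of the centromere (256 of 19355 bins), 1.73% at 2 to 5 Mb (530 of 30715), 2.35% at 5 to 10 Mb (1628 of 69360) and 2.49% beyond 10 Mb (2531 of 101470). Bins beyond 10 Mb were 51.2% of the bins called higher and 45.9% of the tested bins. The depth ratio of the 4 classes was 0.794, 0.787, 0.731 and 0.75, and its part in the difference in DMR share was not tested. In CG the order depended on the setting and the classes were much closer to each other. Its differences without deep mCs were -0.0942, 0.0407, 0.0196 and -0.115 points from the centromere outwards, with no steady order. With thinning in addition they were -0.444, -0.427, -0.406 and -0.334 points, and the median CG bin differences were -0.318, -0.289, -0.224 and -0.198 points, both closest to 0 beyond 10 Mb.

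**Figure D4:**
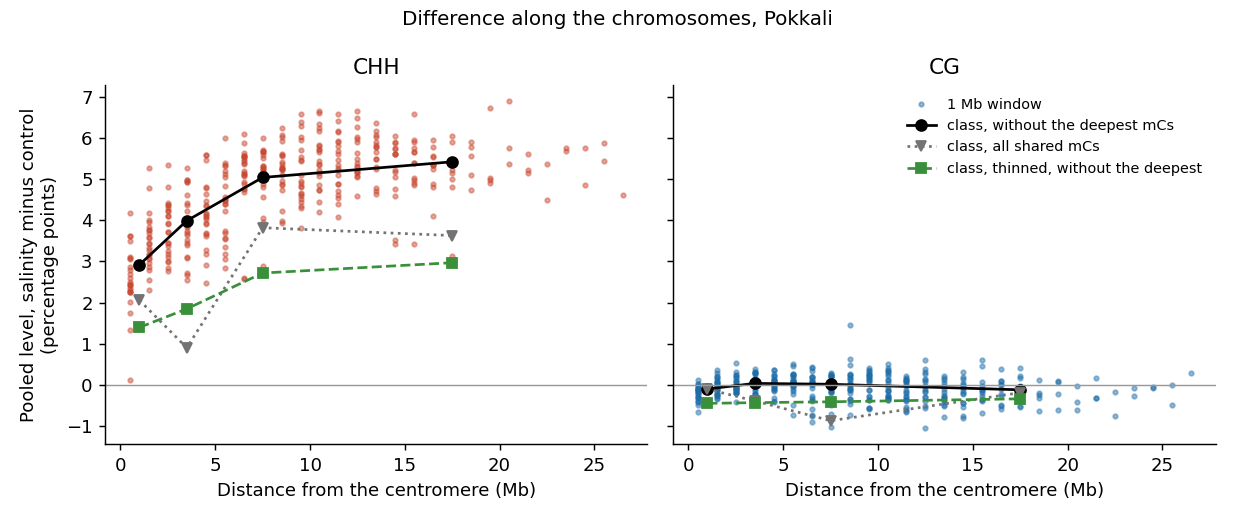
Difference of the pooled level, salinity minus control (percentage points, y axis), by distance from the centromere (Mb, x axis) for CHH (left) and CG (right), with small points for windows of 1 Mb without the deepest mCs and lines for the 4 distance classes. The CHH classes without the deepest mCs go from 2.92 points near the centromere to 5.42 points beyond 10 Mb, and the CG classes stay within 1 point of 0.

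Windows with few CHG mCs had the larger CHH difference. When windows were divided into 4 groups of 94 or 95 by their number of CHG mCs in the IR64 control library, the CHH difference was 5.22 points in the sparsest group and 4.52, 3.08 and 0.895 points in the following groups. Without deep mCs these differences were 5.53, 5.28, 4.88 and 3.49 points, the median bin differences were 4.82, 4.68, 4.64 and 3.04 points, and after thinning the pooled differences were 2.92, 2.69, 2.19 and 1.06 points. The share of CHH bins called higher was 2.5% in the sparsest group and 1.5% in the densest. Sparse and dense refer to CHG mCs alone, and the CHH level of the control was 43.75% in the sparsest group and 24.17% in the densest.

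Individual chromosomes behaved alike in CHH once the deep mCs were left out. The CHH difference then lay between 4.32 and 5.13 points on the 12 chromosomes. The difference beyond 5 Mb exceeded that within 2 Mb of the centromere on all 12 chromosomes, by 1.78 to 3.58 points. With all shared mCs, chromosome 9 alone had a CHH difference below 0 (-0.278 points), and its deep mCs held 50.5% of its CHH reads under salinity and 43.7% in the control. With all shared mCs, the arms exceeded the centromere on 11 chromosomes, with chromosome 6 at -1.41 points. In CG, chromosome 12 had the lowest difference at -2.37 points, with a level of 65.95% under salinity and 68.32% in the control, and without deep mCs it was at 0.0316 points.

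In 370 of the 377 windows of 1 Mb with enough shared mCs the CHH difference was above 0, and in all 377 without the deep mCs. The median window differed by 4.73 points, and the range was -2.16 to 6.74 points. The window with the lowest value, at 28 Mb of chromosome 2, had a CHH level of 19.25% under salinity and 21.41% in the control, and it had a difference of 5.62 points without deep mCs. In CG, 154 windows were above 0 and 223 below, with a median of -0.0693 points. The directions were opposite, CHH above and CG below 0, in 218 windows, and both were above 0 in 152. The Pearson correlation of the CHH and CG differences over windows was -0.00224, as a description. CHH DMRs were called in 374 of the windows, and the window at 5 Mb of chromosome 6 held the most, with 40 called higher and 0 lower, at a CHH level of 50.39% under salinity and 43.83% in the control.

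Clustering of the differences was strongest between adjacent bins. CHH differences of bins next to each other, 100 bp apart, had a Pearson correlation of 0.231, which was 0.0419 at 500 bp, 0.0436 at 2000 bp and -0.00258 at 10000 bp. Reads can span neighbouring bins, so bins next to each other share reads. Each pair of tested bins was counted from both of its ends in the shares that follow. A pair with both bins called was therefore counted from each end, and a bin was counted for each tested neighbour. Of the tested bins next to a CHH bin called higher, 9.78% (506 of 5175) were called higher too, against 2.62% of all bins with a tested neighbour. At 500 bp the share was 2.93% against 2.05%, at 1000 bp 2.56% against 2.06%, at 2000 bp 3.41% against 2.11%, at 5000 bp 1.93% against 2.21% and at 10000 bp 2.91% against 2.18%, with 16 to 40 called partners at each of these distances. The median difference of the bin next to a called one was 11 points, and at 500 bp it was 5.55 points. In CG, 11.5% (46 of 400) of the bins next to one called lower were called lower too, against 0.0418% of all such bins. At 500 bp this was 2.63% (6 of 228), and it was 0 from 1000 bp on.

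Most DMRs stood alone. With called bins of one direction joined at gaps of up to 1000 bp, the 4945 CHH bins called higher formed 4495 groups, of which 4088 were single bins, 368 held 2 bins and 39 held 3 or 4. The bins in groups were 17.3% of the bins called higher. All 165 CHH bins called lower were single. The 346 CG bins called lower formed 312 groups, 285 of them single, and the largest held 6 bins, with 17.6% of the bins in groups. The 194 CG bins called higher formed 182 groups, 171 of them single, and the largest held 3 bins.

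**Figure D5:**
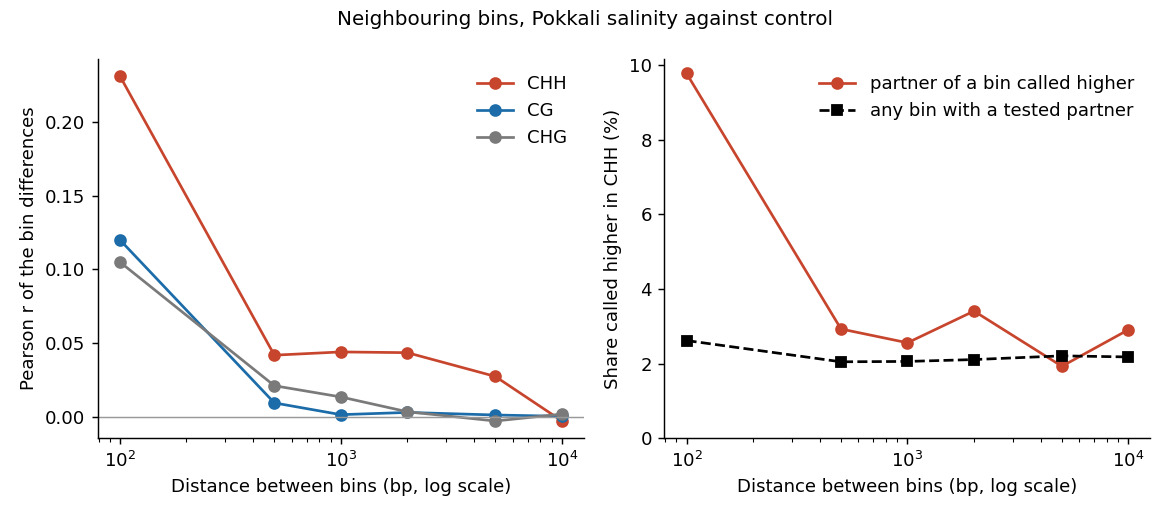
Pearson correlation of the differences of bin pairs in CHH, CG and CHG (left) and the share (%) of bins called higher in CHH among partners of a bin called higher and among all bins with a tested partner (right), by distance between the bins (bp, log axis). The correlation of CHH is 0.231 at 100 bp and -0.00258 at 10000 bp, and the share is 9.78% at 100 bp against 2.62% over all bins.

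The largest group of CG DMRs lay at chr12:24681801-24682600 (MSU release 7), where 6 of 6 tested bins were called lower. Its 51 CG mCs had a level of 32.2% of 1280 reads under salinity and 70.6% of 919 reads in the control. The CHG level of the region was also lower, at 32.3% under salinity and 53.8% in the control. The 5 libraries of IR64 and N22 had CG levels of 25.2% to 38.2% here, so the Pokkali control library stood apart and the salinity library lay among the others. The largest group of CG bins called higher, at chr6:31177801-31178100, had a CG level of 66.7% under salinity and 37.7% in the control over 35 mCs, and a CHG level of 61.5% under salinity and 32.4% in the control. The N22 libraries had CG levels of 95.3% under desiccation and 94.4% in the control there, and the 2 Pokkali libraries lay below both. IR64 salinity listed 1 of these mCs, at 18.8%, and IR64 desiccation and IR64 control listed 0.

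The 3 largest groups of CHH bins called higher had 4 called bins each. At chr1:38670001-38671900 the CHH level was 56.2% under salinity and 44.8% in the control over the 13 tested bins, 11 of them higher. The CG level of this region was 94.8% under salinity and 92.1% in the control. At chr2:29582901-29584200 the CHH level was 55.5% under salinity and 37.7% in the control, with all 8 tested bins higher. At chr3:26336501-26337400 it was 63.3% under salinity and 46.5% in the control, with all 7 tested bins higher. The other 5 libraries had CHH levels of 47.4% to 57.3% in the chromosome 1 region, 42.8% to 52.3% in the chromosome 2 region and 52.1% to 58.3% in the chromosome 3 region. In the chromosome 2 and 3 regions the Pokkali salinity library was above all 5 and the Pokkali control library below all 5.

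Single bins with the largest differences were named by a fixed rule for number of mCs, depth and strand. The first CHH bin called higher was chr2:22910601-22910700, with 86.8% of 53 reads methylated under salinity and 35.8% of 53 reads in the control (Fisher's exact test, adjusted p = 1.76e-05). Its 5 CHH mCs lay on the minus strand between positions 22910671 and 22910688. Their levels were 81.8%, 88.9%, 81.8%, 81.8% and 100% under salinity and 41.7%, 27.3%, 40%, 30% and 40% in the control. Each of the 5 mCs was higher under salinity, and the same reads can cover all of them. The other CHH bins named as higher were chr3:29928601-29928700, with 66.1% of 56 reads under salinity and 17.5% of 154 reads in the control, and chr12:19625201-19625300, with 84.7% of 59 reads under salinity and 37.3% of 67 reads in the control.

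CHH bins with the opposite change were fewer. At chr1:42535101-42535200, 44.0% of 84 reads were methylated under salinity and 83.9% of 87 reads in the control (Fisher's exact test, adjusted p = 9.22e-06), and all 6 mCs were lower under salinity. At chr4:19344901-19345000 the level was 31.4% of 102 reads under salinity and 68.1% of 113 reads in the control. At chr5:19186401-19186500 it was 22.2% of 72 reads under salinity and 57.5% of 127 reads in the control.

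The first CG bin called lower, chr1:11195401-11195500, had a CG level of 33.9% of 127 reads under salinity and 86.4% of 81 reads in the control (Fisher's exact test, adjusted p = 8.13e-10). Of its 6 CG mCs, 5 were lower under salinity and 1 was at 100% in both libraries. The same bin was the first CHG bin called lower, with 22.1% of 113 reads under salinity and 67.6% of 68 reads in the control (Fisher's exact test, adjusted p = 4.59e-05). The 5 libraries of IR64 and N22 had CG levels of 24.4% to 49.0% in this bin. At chr12:24682401-24682500, inside the group of 6 bins described above, the CG level was 17.3% of 243 reads under salinity and 66.7% of 138 reads in the control, and the other libraries had 14.2% to 31.3%. At chr5:13325801-13325900 it was 46.2% of 65 reads under salinity and 94.4% of 89 reads in the control, and here the 3 IR64 libraries had 96.2% to 100%, near the Pokkali control, while each N22 library listed 1 of the 5 mCs.

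The first CG bin named as higher by this rule was chr7:1961001-1961100, with 74.7% of 170 reads under salinity and 23.8% of 386 reads in the control (Fisher's exact test, adjusted p = 5.89e-24). All 17 mCs of this bin were higher under salinity. The IR64 libraries had CG levels of 93.4% to 96.7% here, above both Pokkali libraries, and the N22 libraries listed 0 of these mCs. At chr7:7421101-7421200 the CG level was 82.6% of 92 reads under salinity and 41.0% of 100 reads in the control, and at chr2:22485001-22485100 it was 81.9% of 94 reads under salinity and 41.4% of 87 reads in the control. At chr7:7421101-7421200 the IR64 libraries had 17.1% to 25.8%, below both Pokkali libraries, and the N22 libraries had 85.2% under desiccation and 83.5% in the control. At chr2:22485001-22485100 IR64 control listed 1 mC at 66.7%, and the rest of the IR64 and N22 libraries had 88.8% to 96.4%. In CHG, the bins named as higher were chr7:25280201-25280300, with 83.5% of 85 reads under salinity and 46.9% of 81 reads in the control, and chr8:5222901-5223000, with 60.2% of 123 reads under salinity and 28.4% of 225 reads in the control. The 5 libraries of IR64 and N22 had 74.4% to 83.3% in the chromosome 7 bin and 58.3% to 70.7% in the chromosome 8 bin. The further CHG bin named as lower, chr10:22953001-22953100, had 30.4% of 138 reads under salinity and 67.8% of 121 reads in the control. There the 5 libraries of IR64 and N22 had 84.4% to 93.6%, above both Pokkali libraries.

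The other libraries gave a background for the called bins. At CHH mCs listed in all 7 libraries, the mean level over cytosines was 58.29% in Pokkali salinity and 54.01% in Pokkali control. It was 54.28% in IR64 salinity, 54.5% in IR64 desiccation and 53.69% in IR64 control. In N22 it was 54.84% under desiccation and 58.17% in the control, so the N22 control was close to Pokkali salinity. By pooled level at the same mCs, N22 control was highest at 43.94%, before Pokkali salinity at 42.64% and N22 desiccation at 42.11%. The pooled level was 41.24% in IR64 salinity, 40.55% in IR64 desiccation, 40.53% in Pokkali control and 40.25% in IR64 control. In 3384 of the CHH bins called higher, which held such mCs, the level was 68.0% in Pokkali salinity and 41.7% in Pokkali control, and the other 5 libraries had 51.0% to 58.5%. In 129 of the CHH bins called lower it was 44.8% in Pokkali salinity and 70.6% in Pokkali control, with the others at 55.3% to 61.7%. The called CHH bins thus had a Pokkali library beyond the others on each side. They were chosen by the difference between these 2 libraries, so this is a description.

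CG DMRs were described in the same way. In 204 of the CG bins called lower the level was 47.1% in Pokkali salinity and 77.3% in Pokkali control, and the others had 49.5% to 64.7%. In 90 of the CG bins called higher it was 71.2% in Pokkali salinity and 44.2% in Pokkali control, with the others at 72.6% to 79.9%. These bins too were chosen by the difference between the 2 Pokkali libraries, and only bins with mCs listed in all 7 libraries are included, which affects the levels of the other libraries.

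The same procedure called fewer CHH bins in the other pairs of a stressed and a control library. Their libraries were closer in depth at the shared CHH mCs, with 16.2 reads under salinity and 17.3 in the control in IR64, 17.3 under desiccation and 17.5 in the control in IR64, and 18.1 under desiccation and 19.5 in the control in N22, against 16.7 under salinity and 22.1 in the control in Pokkali. It called 902 CHH bins in IR64 salinity against control (0.418% of the tested bins), 59.0% of them higher. In IR64 desiccation against the same control it called 884 bins (0.389%), 67.3% of them higher, and in N22 desiccation against control 1657 bins (0.758%), 8.57% of them higher. After thinning, 984 of 172564 tested CHH bins were called in Pokkali. The other pairs were not thinned. Their counts came from 215784 tested bins in IR64 salinity, 227450 in IR64 desiccation and 218604 in N22 desiccation. The thinned Pokkali count and these counts were thus not obtained at a like setting. The Pokkali CHH bins called higher were followed in these pairs. In IR64 salinity against control, 4066 of them were tested, with a median difference of 0.361 points, 39 called higher and 25 called lower. Over all 152587 CHH bins tested in Pokkali and in this pair, the median there was 0.77 points, with 471 called higher and 320 lower. In IR64 desiccation against control, 3992 of the Pokkali bins called higher were tested with a median of 1.38 points. The median over all bins tested in both was 0.559 points. In N22 desiccation against control, 3700 of them were tested with a median of -3.61 points, against -2.95 points over all bins tested in both. Whether the pairs differed in their response was not tested, since each group had 1 library.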

How the data were processed

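The deposited tables of the 7 libraries were read. For the control libraries the authors aligned reads with Bismark to the MSU release 7 genome, discarded reads that were clonal or not uniquely mapped, and called mCs with methylKit by a binomial test (p 0.001, at least 5 reads). For the salinity library the labels name the same tools. Per the file headers, each deposited table gives a read count (depth, with no normalization) and a methylation level in percent for every called mC. Cytosines outside a table were treated as unknown. The methylated read number was depth times level, rounded.

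Bins of 100 bp with 3 or more shared mCs were tested by Fisher's exact test on the 12 chromosomes, and unanchored sequences entered only as a separate value. Reads were thinned to equal depth with a fixed seed, and mCs were called again at an error rate of 1% and p 0.001. Windows of 1 Mb needed 1000 shared mCs in each context, which left 377 of 380. Centromere midpoints were those of the MSU release 7 map, rounded to whole Mb. Named bins had at least 5 shared mCs, a mean depth of at least 10 in each library and, where both strands held 2 or more mCs, the same sign on both, and were ranked by absolute difference and kept 10 kb apart. Alternatives were a minimum depth of 10, thinning, calling again, removal of deep mCs, single strands, mCs of all 7 libraries, other thresholds and other adjustments. The members, lists and tests were chosen with earlier results of these data known. Gene annotation, sequence and trinucleotide context were not analysed here. Scripts used Python 3.11.15, numpy 2.4.6, pandas 2.3.3, scipy 1.17.1, numba 0.67.0 and matplotlib 3.10.9, and were tested on simulated data.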

Additional observations from a re-analysis of the deposited data

Results flagged for a closer look

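The number of listed mCs moved in opposite directions under salinity in 2 cultivars, by -11.7% in Pokkali and by 3.67% in IR64. The CG level over the shared mCs also moved in opposite directions, by -0.354 points in Pokkali and by 0.474 points in IR64, salinity minus control. Without the deep mCs the Pokkali value was 0.00776 points, and the directions were then no longer shown to be opposite. With 1 library per group, neither difference between the cultivars was tested. The sequences not placed on the 12 chromosomes stand outside the comparisons above, and there the level differed between Pokkali salinity and control by 0.937 points in CHG (71.1% under salinity and 70.2% in the control) and by 0.832 points in CHH (13.4% under salinity and 12.6% in the control), which was not tested.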

How the results depend on the processing

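No paired analysis was possible because each group had 1 library. The level differences (salinity minus control, in points for CG, CHG and CHH) were -0.366, 0.316 and 2.42 at a minimum depth of 10, -0.366, 0.24 and 2.10 with thinning, -0.319, 0.516 and 3.13 when called again at an error rate of 1%, and -0.587, -0.0121 (CHG reversed) and 2.11 at mCs listed in all 7 libraries. Without the deep mCs they were 0.00776 (CG reversed), 1.47 and 4.82, with thinning in addition -0.394, 0.189 and 2.59, and as a mean over cytosines -0.231, 0.697 and 5.13. On the plus strand CHG and CHH differed by 0.409 and 2.89, and on the minus strand by 0.7 and 2.73. The count of called bins in CG, CHG and CHH was 192, 25 and 984 with thinning, 182, 23 and 990 with thinning and no deep mCs, 192, 37 and 2090 at mCs of all 7 libraries, 229, 28 and 1540 at 30 points, and 0 in each context with reads divided by the number of mCs. At a minimum depth of 10 CHH had 2461, and at 10 points 8228. Plus strand alone gave 256 CG and 40 CHG bins, and minus strand alone 207 and 27. Adjustment over the 3 contexts together gave 223 CHG and 3213 CHH bins. Fewer reads or mCs were tested in most of these settings, and otherwise the cause was not tested.

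The excess of the 20% to 40% class over the highest class of starting level in CHH was 6.72 points, and it was 9.51 with classes from all Pokkali control reads, 2.41 from the mean of both libraries and 1.40 from IR64 control. The excess of the CHH difference beyond 10 Mb over that within 2 Mb of the centromere was 1.57 points, and it was 0.94 at a minimum depth of 10, 1.51 with thinning, 2.50 without deep mCs, 1.57 with both, and 4.32 between the sparsest and densest of 4 groups by CHG mC number. The share of called partners was 2.56% at 1000 bp and 9.78% at 100 bp. The median CG difference in CHH bins called higher was 0.541 points, 0.12 at a minimum depth of 10 and 0 with thinning. The alternatives chosen after seeing the data were thinning together with removal of deep mCs, the mean of both libraries, the distance settings on depth other than the minimum of 10, and both settings for CG in CHH bins. For the 16 named bins, 149 of 175 recomputed values were called, 26 were not, and 0 changed sign. Of the CHH mCs listed in either library, 42.91% were in both.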
